A study of Mus musculus with 14 samples.

Results

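UDP-glucuronosyltransferases (UGTs) were followed in the livers of 14 male C57Bl/6J mice, as the 10 genes Ugt1a1, Ugt1a6a, Ugt2a3, Ugt2b1, Ugt2b5, Ugt2b34, Ugt2b35, Ugt2b36, Ugt3a1 and Ugt3a2 of the 16593 named genes on an Illumina MouseRef-8 v2 beadchip. The genes were taken by family membership, and every probe that the platform annotation gives to them was used. Probes were found for 9 of the 10 genes, 13 probes in all, and Ugt1a1 has no probe that is named here. Of these 9 genes, 8 were measured, through 11 probes with a detection p-value under 0.05 on at least 7 of the 14 arrays.

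The diet contained sucrose for 7 mice and, at equal calories, palatinose (isomaltulose) for the other 7, 1 array per liver, and the labels number them as biological replicates. Both sugars join a glucose to a fructose, and palatinose is digested more slowly. All animals were housed under specific-pathogen-free conditions; the titles give 22 weeks on the diet and the age label 18 weeks, and these conflict unless the age refers to an earlier time than tissue collection. An array keeps the name of its data column, in which SUC or PAL stands for the diet (SUC_424_02, for example). The arrays had mean signals of 190 to 257 and detected 11457 to 12476 of 25697 probes.

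UGTs sit in the membrane of the endoplasmic reticulum, where they join a sugar from a UDP-sugar donor to small lipophilic molecules so that these can leave in bile or urine. Most members use UDP-glucuronate. Liver is a major site of this reaction, which clears bilirubin, steroids, bile acids, thyroid hormone and many drugs. Hepatocyte transcription factors such as HNF1 and ligand-activated receptors such as PXR, CAR and AHR are known to drive UGT genes.

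The listed genes lie in 3 clusters (RefSeq, mouse build GRCm38.p6). Ugt1a1 (chr1:88211959-88220002) and Ugt1a6a (chr1:88134809-88220002) are annotated to the same last base, as are Ugt1a2 and Ugt1a10, because Ugt1a transcripts join a first exon of their own to shared downstream exons. The Ugt2 genes lie on chromosome 5, with Ugt2b34 (chr5:86889770-86906937), Ugt2b1 (chr5:86916639-86926503), Ugt2b35 (chr5:87000860-87013274), Ugt2b36 (chr5:87065927-87092555), Ugt2b5 (chr5:87124946-87140340) and Ugt2a3 (chr5:87324972-87337195). Ugt3a1 (chr15:9279822-9315038) and Ugt3a2 (chr15:9335551-9370955) are neighbours. The promoter table used here, from RefSeq, holds 9 of the 10 genes, without Ugt3a2. The 250 bases before the start that this table gives each gene were searched on both strands for 6 short motifs, and matches were compared with 32851 promoters of the table.

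The core site GTTAAT of the hepatocyte factor HNF1 was found in 4 of the 9 promoters (Ugt1a1, Ugt1a6a, Ugt2a3 and Ugt3a1), against 6.43% of all promoters. It is shown for the 2 genes whose diet differences were largest, as the last 120 bases before the gene start on the strand of the gene, 5′ to 3′, with the core site in capitals, read as GTTAAT or, on the other strand, ATTAAC. Ugt2a3 holds it at 2 places. The Ugt1a6a window lies at chr1:88134689-88134808 on the plus strand and the Ugt2a3 window at chr5:87337196-87337315 on the minus strand.
Ugt1a6a: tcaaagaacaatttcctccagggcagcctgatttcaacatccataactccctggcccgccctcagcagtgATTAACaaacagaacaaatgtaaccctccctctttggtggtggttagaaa
Ugt2a3: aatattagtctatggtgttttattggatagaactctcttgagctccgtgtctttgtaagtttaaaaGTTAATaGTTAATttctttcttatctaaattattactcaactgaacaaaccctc
The nuclear receptor core site AGGTCA was found in 3 of 9 (Ugt2b35, Ugt2b36 and Ugt2b5), against 14% of all promoters, and the TATA box TATAAA in 1 (Ugt3a1), against 12.4%. For Ugt3a1 the start in the promoter table lies a few bases inside the gene interval given above, and most of this TATAAA falls within that interval. The AHR core GCGTG (28.2% of all promoters), the NRF2 core TGACNNNGC (10.2%) and the HNF4 site CAAAGTCCA (0.384%) had 0 matches in the 9 windows. A match describes letters in a window and shows no binding. Only the letters given were searched, so a variant of a site was not counted, and a promoter without a match may hold one.

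Ugt1a6a encodes an enzyme for small planar phenols, and its tested probe ILMN_1212835 had the largest difference between the diets of the 8 measured members. With sucrose its raw intensity ran from 275 to 951 with a median of 633, and with palatinose from 323 to 595 with a median of 425. After normalization the log2 intensity was 8.35 to 9.61 (median 9.30) with sucrose and 8.44 to 9.25 (median 8.77) with palatinose. Of the sucrose livers, 5 lay above every palatinose liver, while SUC_421_03 was the lowest of all 14 and SUC_408_02 lay just below the highest palatinose liver, so the groups overlapped. The means were 9.24 ± 0.41 and 8.76 ± 0.29 (SD, n = 7 each), a difference of -0.48 for palatinose minus sucrose (95% interval -0.83 to -0.12; limma adjusted p = 0.678). An exact permutation test over the 3432 splits of the arrays, two-sided, gave p = 0.0321 before any adjustment. Without SUC_421_03 the difference was -0.62, with a limma adjusted p of 0.132 (0.132 to 0.902 over all settings).

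**Figure D1:**
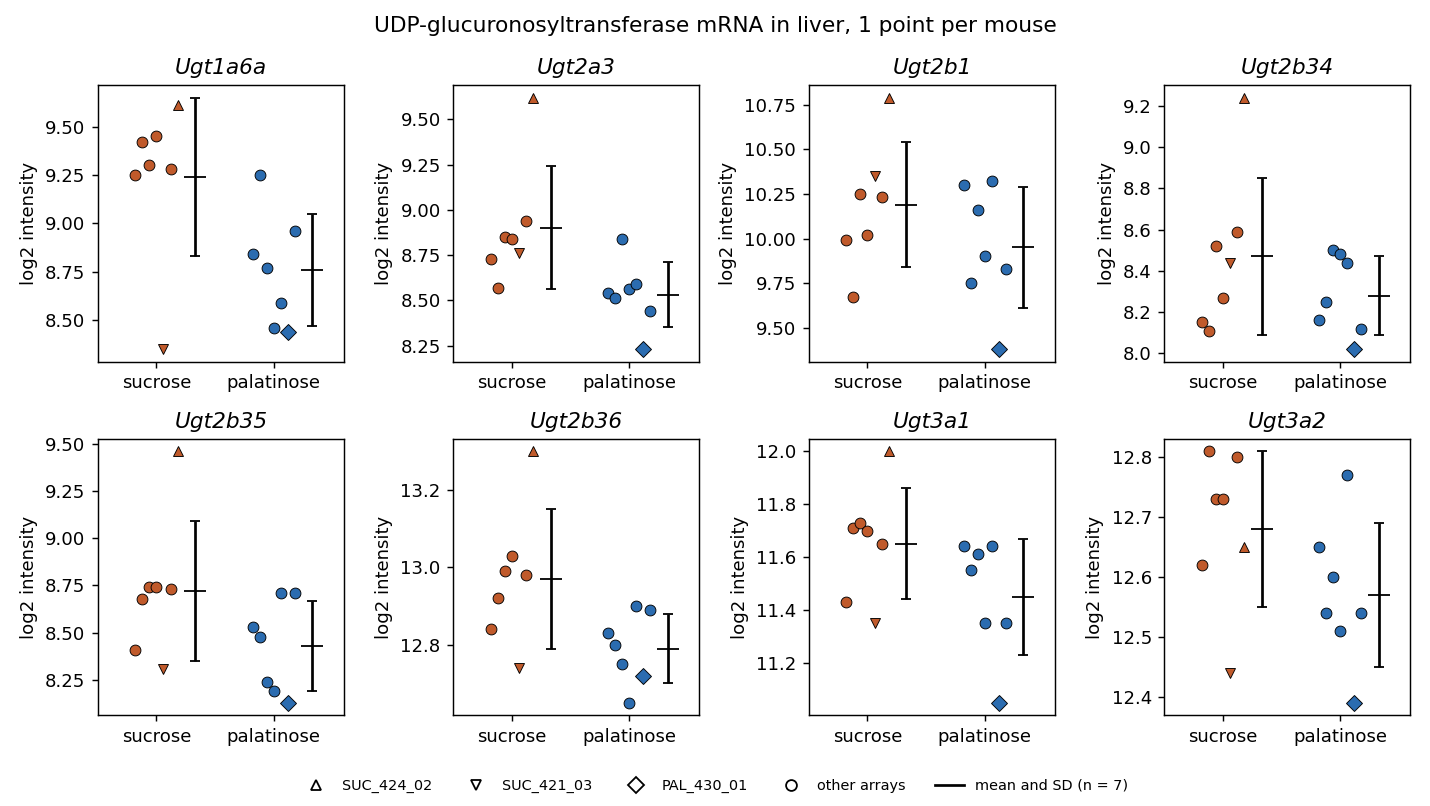
The panels show the log2 intensity of the 8 measured UGT genes, 1 point per liver, with sucrose on the left and palatinose on the right of each panel and the mean and SD (n = 7) beside the points; each panel has its own axis. SUC_424_02 (triangle) is the highest point for 7 of the 8 genes and PAL_430_01 (diamond) the lowest for 6, and the diets overlap in every panel.

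Ugt2a3, whose human counterpart conjugates bile acids, was next. Raw intensity was 372 to 964 (median 415) with sucrose and 276 to 447 (median 349) with palatinose, and log2 intensity 8.57 to 9.62 (median 8.84) and 8.23 to 8.84 (median 8.54). All 7 palatinose livers lay below the sucrose mean and 5 lay below every sucrose liver, while PAL_417_03 and 1 other lay inside the sucrose range. The means were 8.90 ± 0.34 and 8.53 ± 0.18 (SD, n = 7), a difference of -0.37 (-0.65 to -0.09; limma adjusted p = 0.678). The exact permutation p was 0.00874 before adjustment. The other probe of Ugt2a3, ILMN_2714195, was detected on 0 arrays, with a raw intensity of -3 to 5.

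The Ugt2b genes encode enzymes for steroids, bile acids and drugs, and 4 of the 5 listed were measured. For Ugt2b35 the raw intensity was 268 to 847 (median 382) with sucrose and 257 to 406 (median 340) with palatinose. Its log2 means were 8.72 ± 0.37 and 8.43 ± 0.24 (SD, n = 7), a difference of -0.30 (-0.61 to 0.02; limma adjusted p = 0.705), with all 7 palatinose livers below the sucrose mean. SUC_424_02, at 9.46, stood above the other sucrose livers, which reached 8.74. Without it the Ugt2b35 difference was -0.18.

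Ugt2b36 lies next to Ugt2b35 among the listed genes and gave a bright, steady signal. Raw intensity was 6272 to 12033 (median 7941) with sucrose and 6189 to 7833 (median 6998) with palatinose. The Ugt2b36 log2 means were 12.97 ± 0.18 and 12.79 ± 0.09 (SD, n = 7), a difference of -0.18 (-0.35 to -0.01; limma adjusted p = 0.696; exact permutation p = 0.0239 before adjustment). Here 5 sucrose livers lay above every palatinose liver, while SUC_421_03 and 1 other sucrose liver lay within the palatinose range.

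Ugt2b1, whose rat counterpart conjugates morphine and bisphenol A, had a raw intensity of 840 to 2211 (median 1081) with sucrose and 643 to 1234 (median 932) with palatinose. Its log2 means were 10.19 ± 0.35 and 9.95 ± 0.34 (SD, n = 7), a difference of -0.24 (-0.58 to 0.11; limma adjusted p = 0.766). The extremes were single livers, SUC_424_02 and PAL_430_01, and leaving out either one gave -0.14. Ugt2b34 had a raw intensity of 259 to 726 (median 295) and 239 to 349 (median 286), and a log2 difference of -0.19 (-0.50 to 0.12; limma adjusted p = 0.785) that was -0.07 without SUC_424_02. On the log2 scale SUC_424_02 was at 9.24, and the other sucrose livers, which reached 8.59, overlapped the palatinose livers over most of their range. Ugt2b5, the remaining listed Ugt2b gene, had a probe that was detected on 0 arrays, with raw intensities of -10 to 0, and so has no level here.

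The Ugt3a enzymes use other donor sugars; in humans UGT3A1 uses UDP-N-acetylglucosamine and UGT3A2 uses UDP-glucose and UDP-xylose. For Ugt3a1 the raw intensity was 2329 to 5065 (median 3105) with sucrose and 2067 to 3196 (median 2961) with palatinose. Its log2 means were 11.65 ± 0.21 and 11.45 ± 0.22 (SD, n = 7), a difference of -0.20 (-0.43 to 0.03; limma adjusted p = 0.722) that came to -0.13 without PAL_430_01. Ugt3a2, with 5076 to 8061 (median 6794) and 5182 to 7026 (median 6039), differed by -0.11 (-0.27 to 0.05; limma adjusted p = 0.760). It was the 1 measured member whose highest liver was not SUC_424_02 but SUC_411_03.

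Across the family, 0 of 8 measured members passed the limma test between the diets at an adjusted p under 0.05, and 0 of all 8829 features tested did (0%). At an unadjusted p under 0.05, 3 members (Ugt1a6a, Ugt2a3 and Ugt2b36) were lower with palatinose, where 296 of all features (3.35%) were, and 627 (7.1%) in either direction. With the mean of a gene's kept probes in place of the tested probe, only 1 member, Ugt2a3, was under 0.05. In that setting 650 of 8829 features were, in either direction. Ugt1a6a then had an unadjusted limma p of 0.115 and Ugt2b36 of 0.172. All 8 estimates lay below 0, against 3991 of all features (45.2%), and their median was -0.22 against 0.01 over all features. The 8 values are not independent, since the genes were correlated across livers. In 0 members were the groups free of overlap, against 11 of all features (0.125%). For 5 members the interval stayed inside a 1.5-fold change up or down, against 95.3% of all features, and those of Ugt1a6a, Ugt2a3 and Ugt2b35 reached past it. In RNA from whole liver, fewer cells of a type and less RNA per cell cannot be told apart.

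**Figure D2:**
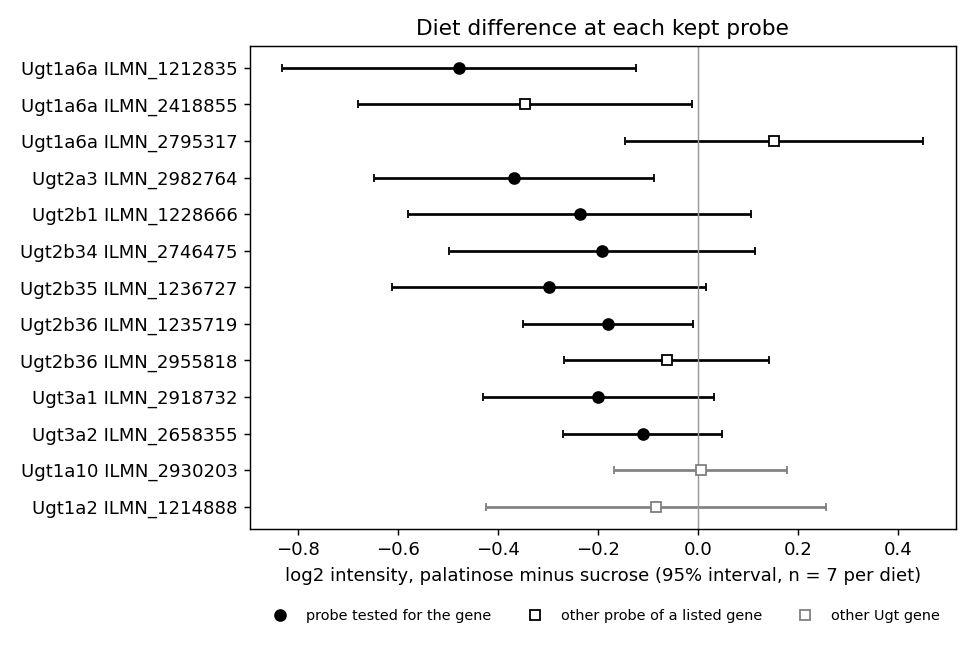
Each row is a probe of a UGT gene and each point its log2 difference, palatinose minus sucrose, with the 95% interval from the fit of all kept probes (n = 7 per diet). The 8 probes tested for a gene lie below 0, from -0.48 to -0.11, while the third probe of Ugt1a6a lies at 0.15 and Ugt1a10 at 0.01.

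The 3 probes annotated to Ugt1a6a did not give the same picture. ILMN_2418855 followed the tested probe closely (r = 0.96 over 14 arrays, 0.95 within each diet), with a log2 difference of -0.35 (-0.68 to -0.01). ILMN_2795317 was at 8.54 ± 0.35 with sucrose and 8.70 ± 0.22 with palatinose (SD, n = 7), a difference of 0.15 (-0.15 to 0.45), and its r with the others was 0.16 and 0.07. Without SUC_424_02 these r were -0.17 and -0.11. For all 3683 pairs of kept probes of 1 gene, over 2061 genes, the median r was 0.40 (quartiles 0.11 and 0.67). The log2 ratio of ILMN_1212835 to ILMN_2795317 within an array was 0.69 ± 0.43 with sucrose and 0.06 ± 0.26 with palatinose (SD, n = 7), a difference of -0.63 (exact permutation p = 0.0111, adjusted p = 0.0642 over 11 such probe comparisons). The probes thus differed from each other, but not past the adjusted threshold, and the mean of the 3 probes gave a diet difference of -0.22. Which exon each probe reads was not determined, and whether a probe also binds the transcript of a close paralog was not tested.

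**Figure D3:**
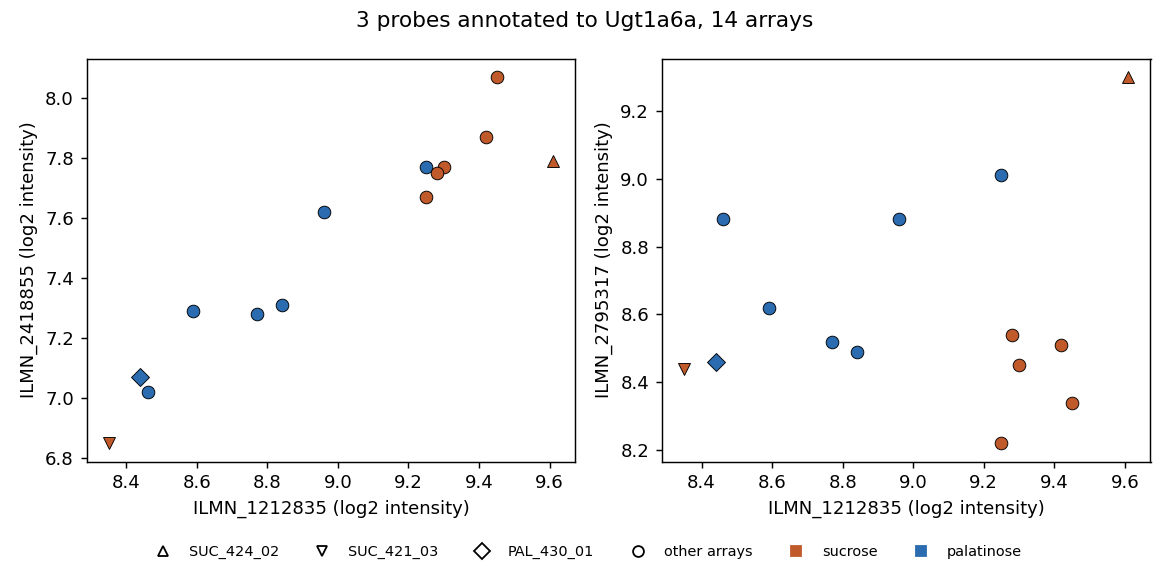
Each point is an array, coloured by diet, with the log2 intensity of the tested Ugt1a6a probe on both x axes and that of the other 2 probes on the y axes. The left panel shows the pair with r = 0.96, and the right panel the pair with r = 0.16, in which SUC_424_02 is high on both probes.

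Ugt2b36 also has a second kept probe, ILMN_2955818, which gave -0.06 (-0.27 to 0.14) against -0.18 at the tested one, with r = 0.81 between them (0.99 within sucrose and 0.57 within palatinose). Their log2 ratio differed by -0.12 between the diets (exact permutation p = 0.0297, adjusted p = 0.0642 over the same 11 comparisons).

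Of 7 other Ugt genes with a named probe, 2 were measured. Ugt1a10 had 12.04 ± 0.14 with sucrose and 12.05 ± 0.14 with palatinose (SD, n = 7), a difference of 0.01 (-0.17 to 0.18). Ugt1a2 gave -0.08 (-0.42 to 0.26). Which exon the probes of Ugt1a10 and Ugt1a2 read was not determined either. A probe in the shared downstream exons would read the other Ugt1a transcripts too. Ugt2a2 was detected on 3 arrays, and Ugt2a1, Ugt2b37, Ugt2b38 and Ugt8a, the last of which makes the galactolipids of myelin, on 0.

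Within a diet, 6 of the 8 members varied more between livers than the median gene. The residual SD within diet had a median of 0.29 log2 over the 8 members and 0.18 over all features, from 0.12 for Ugt3a2 (percentile 14.8 of all features) to 0.36 for Ugt1a6a (percentile 93.8). The SD was larger with sucrose than with palatinose for 7 members, and for 5285 of 8829 features. SUC_424_02 was the highest of all arrays for 7 of 8 members, 0.42 to 0.91 above their means, and PAL_430_01 was the lowest for 6 and below the mean for all 8, with deviations of -0.69 to -0.16. SUC_415_02 and SUC_423_04 were also above the mean for all 8, but by at most 0.30.

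The 2 extreme arrays also stood apart over the whole array. SUC_424_02 had the highest value for 19.6% of features and the lowest for 25.1%, the highest mean signal (257, against at most 215 on the other arrays) and the lowest median correlation with the other arrays (0.978). PAL_430_01 had the highest value for 11.1% of features and the lowest for 10.4%, with a median correlation of 0.982. With SUC_424_02 left out, 2 members were lower at an unadjusted p under 0.05, against 296 of all features (3.35%), and 0 passed.

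**Figure D4:**
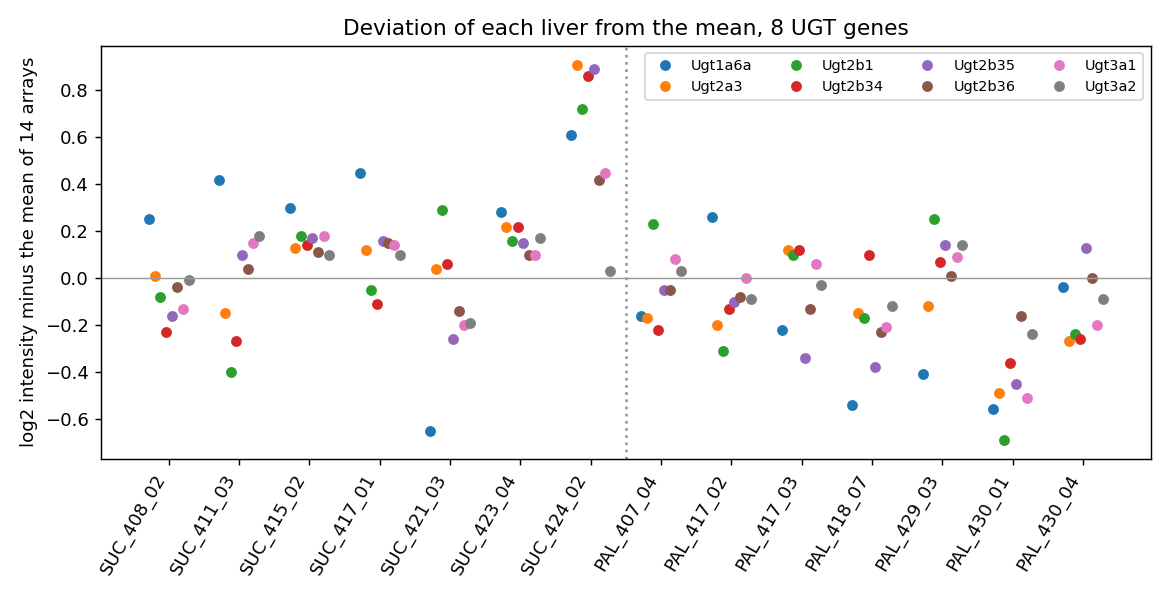
For each of the 14 arrays, the 8 coloured points give the deviation of each UGT gene from its own mean over the arrays, in log2 units, with sucrose left and palatinose right of the dotted line. The points of SUC_424_02 reach 0.91, all points of PAL_430_01 lie below 0, and Ugt1a6a departs from the others on SUC_421_03 at -0.65.

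The tissue label was checked against marker genes. Of 6 hepatocyte markers, Apoa1, Cps1, Cyp2e1 and Ttr were detected on all 14 arrays, Alb was detected on SUC_424_02 only, and Tat was at or below 0 on all; the summed raw signal was 56963 to 64082 with sucrose and 57565 to 63642 with palatinose. On 5 arrays at least 5 markers of skeletal muscle or pancreatic acini were detected. Muscle markers were found on SUC_415_02 (8 of 9), PAL_407_04 (8 of 9), PAL_417_03 (7 of 9) and PAL_429_03 (9 of 9), and pancreatic markers on SUC_415_02 (10 of 10) and SUC_421_03 (6 of 10). Summed muscle signal was 11 to 3239 with sucrose and 17 to 5661 with palatinose, and summed pancreatic signal 228 to 4377 and 211 to 351. Of 4 kidney markers 0 were detected on any array, of 5 cholangiocyte markers 1 to 2, of 3 macrophage markers 2 to 3 and of 3 intestinal markers 1 to 2. Without these 5 arrays every member differed by more, from -0.23 for Ugt3a2 to -0.62 for Ugt1a6a, with -0.50 for Ugt2a3, -0.42 for Ugt2b1 and -0.37 for Ugt3a1. In that fit 6 members were lower at an unadjusted limma p under 0.05, against 464 of all features (5.26%), and 0 passed. The 9 arrays left still held the extreme livers SUC_424_02 and PAL_430_01, with more weight, and no longer held SUC_421_03, the lowest for Ugt1a6a. Whether the other tissues account for the larger differences was not tested.

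UGT transcripts, each read through its tested probe, varied together from liver to liver. All 28 pairs of measured members had a Pearson r above 0 over the 14 arrays, from 0.20 to 0.97 with a median of 0.67, where all 38971206 pairs of features had a median of 0.00, an upper quartile of 0.25 and a 95th percentile of 0.56. By permutation with Benjamini-Hochberg adjustment over the 28 pairs, 23 passed, and 16 passed by Spearman. After the 2 arrays farthest from the median of 1 gene were left out 6 passed, and the same 6 passed all 3. These 2 arrays differed between pairs. They were PAL_430_01 and SUC_421_03 for pairs of Ugt1a6a, which so kept SUC_424_02. For Ugt2b36 with Ugt3a1 or Ugt3a2 they were PAL_418_07 and SUC_424_02, and for the other pairs PAL_430_01 and SUC_424_02. With only SUC_424_02 left out 14 pairs passed by Pearson r, and with only PAL_430_01 left out 12 did. With the mean of each diet removed 15 pairs passed, and within a diet 6 passed over the sucrose arrays and 5 over the palatinose arrays. In 21 pairs r was above 0 in both diets.

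**Figure D5:**
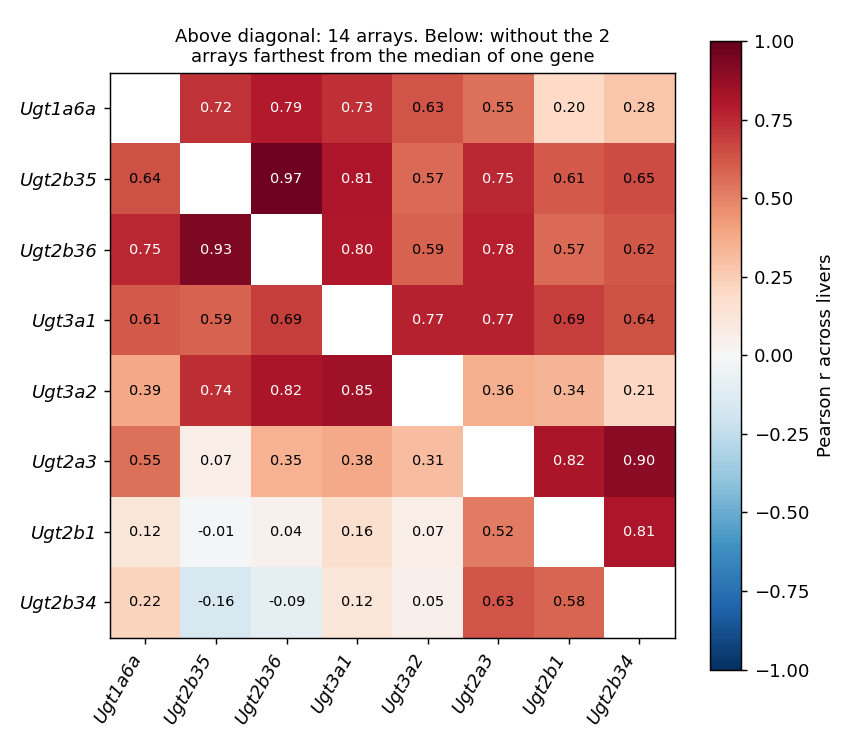
The grid gives Pearson r across livers for each pair of UGT genes, over 14 arrays above the diagonal. Below it, the 2 arrays farthest from the median of 1 gene are left out, and these differ between pairs. The block of Ugt1a6a, Ugt2b35, Ugt2b36, Ugt3a1 and Ugt3a2 keeps r of 0.39 to 0.93 below the diagonal, while Ugt2b34 with Ugt2b35 goes from 0.65 to -0.16.

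Ugt2b35 and Ugt2b36 formed the tightest pair. Their r was 0.97 and rho 0.96 over 14 arrays (both with a permutation p of 1e-05, the smallest that 100000 permutations can give, adjusted p = 0.00028). Within sucrose r was 0.98 (exact permutation p = 0.000595, n = 7) and within palatinose 0.95 (exact permutation p = 0.00258, n = 7), and without SUC_424_02 and PAL_430_01 it was 0.93. At these probes each was the other's closest partner among all 8829 features, ahead of Cmpk1, a pyrimidine nucleotide kinase (0.93 with each). Ugt2b36 was read at ILMN_1235719. Its other kept probe, ILMN_2955818, had r = 0.81 with that probe, and 0.57 within palatinose, and was not set against Ugt2b35. Whether the dimmer Ugt2b35 probe also binds the Ugt2b36 transcript was not tested.

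Their promoters, examined after this correlation was seen, share a run of 14 bases, at -70 to -57 from the start of Ugt2b35 and -64 to -51 from that of Ugt2b36. That run occurs in 2 of the 32851 promoters (0.0061%), these 2. It was taken as the longest run shared by the 2 windows, so its presence in both was fixed by that choice. Only exact copies were counted. Similar stretches stand in the windows of Ugt2b1 (gttatatgttaact), Ugt2b34 (gttacactttaact) and Ugt2b5 (gttatagtttaacc). Over the last 120 bases the promoters of the pair were 59.8% identical by alignment, while those of Ugt2b36 and Ugt2b5 were 68.5% identical with a shared run of 24 bases. The 3 windows are shown with the 14-base run in capitals. The Ugt2b5 window is for comparison, since the probe of that gene was not detected, which leaves its level unknown. The windows lie at chr5:87000740-87000859 (plus strand), chr5:87092556-87092675 (minus) and chr5:87140341-87140460 (minus).
Ugt2b35: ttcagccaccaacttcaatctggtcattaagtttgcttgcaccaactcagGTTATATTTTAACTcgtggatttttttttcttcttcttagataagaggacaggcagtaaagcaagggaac
Ugt2b36: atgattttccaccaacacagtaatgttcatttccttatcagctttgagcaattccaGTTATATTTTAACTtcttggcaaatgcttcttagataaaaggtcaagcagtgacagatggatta
Ugt2b5: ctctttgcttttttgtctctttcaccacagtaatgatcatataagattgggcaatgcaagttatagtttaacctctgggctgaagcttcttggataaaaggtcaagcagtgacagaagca

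The neighbours Ugt3a1 and Ugt3a2 had r = 0.77 and rho = 0.84 (adjusted permutation p = 0.00413 and 0.0014 over the 28 pairs) and 0.85 without SUC_424_02 and PAL_430_01. Within palatinose r was 0.87 (exact permutation p = 0.00714) and within sucrose 0.55 (exact permutation p = 0.196). Ugt1a6a, on another chromosome, had r = 0.79 with Ugt2b36 (rho 0.87, adjusted permutation p = 0.00243) and 0.75 without PAL_430_01 and SUC_421_03. This holds for the Ugt1a6a probe ILMN_1212835. The probe ILMN_2795317 had r = 0.16 with that probe and was not set against the other members. The other pairs that passed all 3 were Ugt2b36 with Ugt3a1 (0.80, and 0.69 without 2 arrays), Ugt2b36 with Ugt3a2 (0.59 and 0.82) and Ugt2b35 with Ugt3a2 (0.57 and 0.74).

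Ugt2a3, Ugt2b1 and Ugt2b34 had high r with each other over all arrays and lower r without the extreme livers. Ugt2a3 with Ugt2b34 had r = 0.90 and rho 0.80 (adjusted permutation p = 0.00243 and 0.00417). Within sucrose r was 0.96 and within palatinose 0.83 (exact permutation p = 0.00278 and 0.00337). Without SUC_424_02 and PAL_430_01 it was 0.63, which missed the adjusted threshold over 12 arrays (permutation p = 0.0319, adjusted p = 0.107). Ugt2a3 with Ugt2b1 went from 0.82 to 0.52 and Ugt2b1 with Ugt2b34 from 0.81 to 0.58. Ugt2b1 with Ugt3a2 had r = -0.42 within sucrose (exact permutation p = 0.348) and 0.93 within palatinose (exact permutation p = 0.00198); the difference between these was not tested.

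Over all 14 arrays the genes most like Ugt1a6a were Tent2, a poly(A) polymerase (r = 0.91), the secretory GTPase gene Rab1b (0.90) and Plpbp, for a pyridoxal phosphate binding protein (0.89). Those most like Ugt2b1 were Zfp654, a zinc finger gene (0.93), Mbl1, for a mannose-binding lectin of liver (0.91), and Pex13, of peroxisomal import (0.91). They had the highest r of all features tested and are given as a description.

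A panel of regulators and receptor targets was set against the 8 members in 88 pairs, with 11 of 14 panel genes measured. The panel also held 2 genes, Hsd3b5 and Socs2, chosen because earlier results of these data showed them to vary widely among these mice. After adjustment over the 88 pairs 2 passed by Pearson r. Nfe2l2, which encodes the oxidative stress factor NRF2, had r = 0.85 with Ugt2b35 and 0.83 with Ugt2b36 (adjusted permutation p = 0.0172 for each). By Spearman these missed the threshold (rho 0.75 and 0.76, adjusted permutation p = 0.0874 for each), and without the 2 farthest arrays r was 0.85 and 0.62 (adjusted permutation p = 0.0524 and 0.299). Within diets the r of Nfe2l2 with Ugt2b35 was 0.91 for sucrose (exact permutation p = 0.00933) and 0.71 for palatinose (exact permutation p = 0.0827). Nqo1, the NRF2 target on the panel, had r = 0.38 with Ugt2b35 and 0.37 with Ugt2b36 (adjusted permutation p = 0.38 and 0.39). Without the 2 farthest arrays these were 0.72 and 0.45, which missed the adjusted threshold as well. By Spearman 1 pair passed, Ugt2b1 with Ppara, the fatty acid receptor gene (rho 0.83, adjusted permutation p = 0.0378; r = 0.73, adjusted permutation p = 0.0777). Hsd3b5, a steroid dehydrogenase gene with male-biased expression in liver, had r = 0.65 with Ugt2b1 (adjusted permutation p = 0.183). That r was -0.03 within sucrose and 0.94 within palatinose (exact permutation p = 0.955 and 0.000794). The within-diet p-values here were not adjusted for the number of pairs.

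Genes that supply UDP-glucuronate did not pass between the diets. Of 9 listed, 4 were measured, 3 higher and 1 lower with palatinose, with a median of 0.07 log2. Slc35d1, which carries UDP-glucuronate into the endoplasmic reticulum, gave 0.18 (-0.05 to 0.41), and Ugp2, which makes UDP-glucose, -0.15 (-0.39 to 0.09). Slc35b1, a nucleotide transporter of the same membrane, gave 0.09 and Pgm1, for phosphoglucomutase, 0.04. Ugdh, for the dehydrogenase that makes UDP-glucuronate, had a probe detected on 0 arrays. Of 7 genes listed for the formation and use of glucuronate, including its path to ascorbate, 6 were measured, 2 higher and 4 lower (median -0.02), and 0 passed. Cryl1, for gulonate dehydrogenase, gave -0.20, the gluconolactonase gene Rgn -0.20, the xylulose reductase gene Dcxr 0.07 and Gulo, for the last enzyme of ascorbate synthesis, -0.04.

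Removal and export of glucuronides had 5 of 8 genes measured, 2 higher and 3 lower (median -0.01), and 0 passed. Slco1b2, the hepatocyte uptake carrier that takes up conjugated bilirubin, had 10.37 ± 0.27 with sucrose and 9.82 ± 0.43 with palatinose (SD, n = 7), a difference of -0.55 (-0.90 to -0.19; limma adjusted p = 0.604). The uptake carrier gene Slco1a4 gave -0.29, Gusb, for the glucuronidase that splits glucuronides, 0.16 and the exporter gene Abcc3 0.09. Of 7 genes from haem to bilirubin, the substrate of Ugt1a1, all 7 were measured, 2 higher and 5 lower (median -0.01), and 0 passed. That list shares Slco1b2, and gave -0.38 (-1.31 to 0.56) for Gsta2, whose product binds bilirubin, 0.13 for the haem oxygenase gene Hmox1 and 0.05 for the biliverdin reductase gene Blvrb.

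Among other conjugating enzymes 12 of 17 were measured, 1 higher and 11 lower with palatinose (median -0.13), and 0 passed. Papss2, which makes the sulfate donor, gave -0.34 (-0.60 to -0.08; limma adjusted p = 0.678) and the sulfotransferase gene Sult1d1 -0.24 (-0.45 to -0.04; limma adjusted p = 0.681). The acetyltransferase gene Nat1 gave -0.19 and the glutathione transferase gene Gstp1 -0.21. Of 19 known regulators of UGT genes 14 were measured, 4 higher and 10 lower (median -0.06), and 0 passed. Rxra, the shared partner of nuclear receptors, gave -0.22 (-0.40 to -0.05; limma adjusted p = 0.678), Stat5a, of growth hormone signalling, 0.25 (0.01 to 0.50; limma adjusted p = 0.696), Ppara -0.28 and Cebpa, a hepatocyte factor, -0.16. Of 18 receptor targets 11 were measured, 3 higher and 8 lower (median -0.06), and 0 passed. The cytochrome P450 gene Cyp2c29 gave -0.41 (-0.77 to -0.04; limma adjusted p = 0.681), Alas1, of haem synthesis, -0.27, and the NRF2 targets Nqo1 and Gclm -0.12 and -0.09.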

How the data were processed

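Liver RNA from 14 mice (7 sucrose, 7 palatinose) was isolated with the RNeasy kit and DNase, then amplified with biotin label (TotalPrep), per the labels. The deposited non-normalized table holds a whole-number intensity on a linear scale for each probe and array, and a detection p-value beside each intensity, per the file headers. On each array 23.0% to 26.4% of them are negative, which shows an earlier background subtraction. The intensities written by the authors in the table of the series are normalized and linear, with all column medians at 21 and values of 2 to 23062; the sources used here do not give their method. Log2 values were computed from the deposited intensities: neqc of limma 3.58.1 (R 4.3.3) corrected the background from the detection p-values, added an offset of 16, quantile normalized and took log2. Arrays hold no counts, and their number limits the precision.

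Probes detected (p under 0.05) on at least 7 of 14 arrays were kept, 11628 of 25697. The kept probe with the highest mean stood for a gene, and 683 unnamed kept probes for themselves, which gave 8829 features; 1719 probes are unnamed here. Diets were compared with lmFit and eBayes, two-sided and with no covariate, as palatinose minus sucrose, with Benjamini-Hochberg adjustment over all features. Each diet was read from the column names; these carry no replicate number, so the number was used as a block only on the authors' values. Correlations have 100000 permutations (20000 in alternatives) and exact values within a diet (Python 3.11.15, numpy 2.4.6, scipy 1.17.1). A marker counted as detected at a p-value under 0.01. The fit was tested on simulated data.

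The members, the gene lists and the tests were chosen with earlier results of these data known. Named are all 10 members, every other Ugt gene, up to 4 genes of smallest p per list, and the 3 genes most like the 2 members of largest SD over the arrays. Other settings were the background correction, the normalization, the authors' values, the filter, the moderation and array weights. A fit of every kept probe, with members read at the tested probe, and a fit of the mean of a gene's kept probes were also run. So were a random block for the code in the column name (statmod 1.5.0) and each array left out. Leaving out the arrays with muscle or pancreatic transcripts, the array-wise settings of the correlations and the probe ratios were added after seeing the data.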

Additional observations from a re-analysis of the deposited data

Results flagged for a closer look

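Of 22 groups of 7 arrays tested, 1 for each diet and kept probe, 6 held a liver far from the other 6. Chance flags about 1 in 20 separate groups, but these groups share the same livers and hold correlated probes. Over all 11628 kept probes, such a liver was found in 14.9% of the sucrose groups and 5.77% of the palatinose groups. The measure is the gap to the nearest other liver as a share of the whole range of the group, set against Dixon's critical value for 7 samples. All 6 were in the sucrose group.

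SUC_421_03 was the low liver for 2 probes of Ugt1a6a. At ILMN_1212835 it had a log2 intensity of 8.35 where the others had 9.25 to 9.61 (share 0.713), and at ILMN_2418855 it had 6.85 where the others had 7.67 to 8.07 (0.676). The third Ugt1a6a probe, ILMN_2795317, had SUC_424_02 as the high liver instead, at 9.30 against 8.22 to 8.54 (0.709).

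SUC_424_02 was also the high liver for 3 Ugt2 genes. For Ugt2a3 it was at 9.62 against 8.57 to 8.94 (0.649), for Ugt2b34 at 9.24 against 8.11 to 8.59 (0.57) and for Ugt2b35 at 9.46 against 8.31 to 8.74 (0.624).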

How the results depend on the processing

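Each of the 8 measured members lay below 0 in all 29 settings run for it, the main fit included, 232 values in all, and 0 passed. Changes of filter or moderation and the fit of every kept probe reused the same probe values, so they could not change an estimate. Fits that left out 1 array shared most of their data. The 232 values are thus not separate tests of the sign. These values read a gene through its tested probe or the mean of its kept probes, and never through another probe alone. The Ugt1a6a probe ILMN_2795317, which gave 0.15, was thus not among them. Over all features, 1 of 18312 passed without a filter on dim probes (1084 at an unadjusted p under 0.05), and 0 passed in the other settings. Sizes moved by over 1.5 times for Ugt1a6a as the mean of its probes (-0.22), with array weights for Ugt2a3 (-0.23), Ugt2b1 (-0.11) and Ugt2b34 (-0.04), and without SUC_424_02, PAL_430_01 or the arrays with other tissues as given above. Leaving out 1 array gave -0.62 to -0.42 for Ugt1a6a, -0.42 to -0.25 for Ugt2a3 and -0.25 to -0.07 for Ugt2b34. The count of correlated pairs of members, 23 of 28, was 24 with cyclic loess, 26 with median scaling, 17 without the arrays with other tissues, 15 with diet means removed, 6 over sucrose arrays and 5 over palatinose arrays; leaving out 1 array gave 12 to 23. Fewer arrays leave the within-diet tests less power. Against the panel genes, 1 pair passed by Spearman where 2 did by Pearson. For the other changes of count the cause was not tested. The replicate number as a block, on the authors' values, gave 0 passed features, 617 at an unadjusted p under 0.05, 2 of them members. Same-numbered arrays of the diets correlated at -0.208 to 0.168, over 0.1 for 3 of 7 numbers, and 1 of 7 correlated best with its own number, so the numbers were not taken to pair mice. With 7 arrays per diet, differences inside the 95% intervals given above could not be resolved.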
